A study of Homo sapiens with 2 samples.

Results

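The NRF2, glutathione and antioxidant genes were examined in breast cancer cells that were treated with cisplatin and either carried or lacked FZR1. The group holds 36 genes listed by their function, and all 36 were found among the 23033 genes with a value. Total RNA of control cells (genotype WT) and FZR1 ko cells, each labelled T-47D and each given 2 µg/mL cisplatin, was sequenced with 1 library per genotype. The FZR1 ko line was made with CRISPR/Cas9 and single cell screening, so the knockout stands for 1 selected line, and the hours of drug exposure are not stated in the sources used here. Cells without cisplatin were not analysed here, so the values compare the genotypes under the drug and give no response to it. The values are FPKM, fragment numbers divided by transcript length and by the mapped total, which allows levels to be compared between genes. With 1 library per genotype no difference has a replicate check, and no test was made. Below, "higher" and "lower" give the sign of a difference of any size, and "rose" and "fell" are kept for genes that passed 2-fold.

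The level of FZR1 (Entrez gene 51343) was 12.3 FPKM in control and 10.1 in FZR1 ko. Cas9 often leaves the mRNA of its target intact, so this value is no check of the labels. Of 10 luminal breast markers, 6 were below 1 FPKM in both libraries, ESR1 (0.04 and 0.13 FPKM), PGR, GATA3, CDH1, KRT19 and SPDEF, while KRT8 (829 and 998 FPKM) and KRT18 (552 and 740.04 FPKM) were high. FOXA1 (5.07 and 4.65 FPKM) and TFF1 (9.80 and 7.52 FPKM) were low in level and slightly lower in FZR1 ko. The sum over the 10 markers was 1398 FPKM in control and 1752 in FZR1 ko, nearly all of it KRT8 and KRT18. Of 8 mesenchymal and basal markers, the basal keratins KRT5 and KRT14 were below 1 FPKM in both libraries. CDH2 (2.97 and 15.3 FPKM) and AXL (16.0 and 37.8 FPKM) rose past 2-fold, ZEB1 had 2.82 and 4.45 FPKM, and VIM (315 and 295 FPKM), CD44 (65.7 and 59.4 FPKM) and FN1 (6.33 and 5.88 FPKM) were slightly lower. The sums over these 8 markers were 409 FPKM in control and 418 in FZR1 ko. Most of the defining luminal genes were thus near 0 in both libraries labelled T-47D. The part of cell identity in the values below was not tested.

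NRF2, encoded by NFE2L2, is a transcription factor that KEAP1 holds in the cytoplasm and hands to a ubiquitin ligase. Oxidants and electrophiles modify KEAP1, NRF2 then enters the nucleus, pairs with a small MAF protein and binds antioxidant response elements near genes for glutathione synthesis, thioredoxin reduction, NADPH supply, quinone and heme breakdown and iron storage. Glutathione also binds cisplatin directly, and high glutathione or glutathione transferase levels are a known feature of many cells that tolerate the drug.

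As a group these genes showed no common direction between control and FZR1 ko cells, and neither did all genes compared. Of the 36 genes, 19 were higher and 17 were lower in FZR1 ko, and the median log2 ratio was 0.03. Over all 13554 genes compared, those that reached 1 FPKM in 1 library or both, 49.6% were higher, 50.3% were lower and the median was -0.0048. Each ratio is the log2 of FPKM + 1 in FZR1 ko over FPKM + 1 in control. Only 3 members passed 2-fold. ME1 and CAT rose and SOD2 fell. These are 8.33% of the members, and 13.5% of all genes compared passed 2-fold. In the upward direction it was 5.56% of the members and 6.79% of all genes, and in the downward direction 2.78% and 6.72%. At 1.5-fold, 5 members passed (13.9%), with TKT and GSR added on the higher side, beside 35.7% of all genes. With a pseudocount of 5 FPKM in place of 1, only SOD2 passed 2-fold, beside 3.34% of all genes, since ME1 then had a log2 ratio of 0.69 and CAT one of 0.83. RNA was taken from whole cultures, where fewer cells of a kind and less RNA per cell cannot be told apart. A difference of less than 1.2-fold was seen in 17 members (47.2%) and in 32.6% of all genes.

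Most of these genes were abundant, and abundant genes differed less in the whole table, so the counts were also read against genes of like level. Among genes of at least 10 FPKM in 1 library, 2 of 34 members (5.88%) and 11.5% of all genes passed 2-fold, and 4 members (11.8%) and 33.1% of all genes passed 1.5-fold. Among genes of at least 100 FPKM, a level chosen after the values were seen, 1 of 19 members (5.26%) and 6.59% of all genes passed 2-fold, and 2 members (10.5%) and 22.1% of all genes passed 1.5-fold. The median size of the log2 ratio, whatever its sign, was 0.26 for these 19 members and 0.30 for the 986 genes of that level. At 100 FPKM or more, the members therefore lay close to genes of like level at 2-fold.

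**Figure D1:**
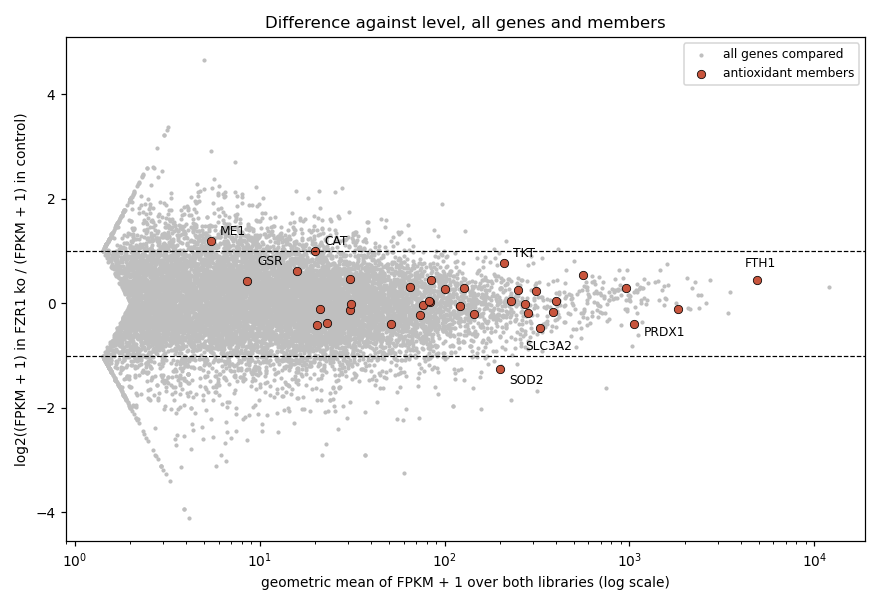
Each point is a gene, with its level in FPKM + 1 averaged over both libraries on a log axis and its log2 ratio of FZR1 ko to control on the other axis. Dashed lines mark 2-fold. Of the 36 members in red, ME1 and CAT lie at or above the upper line, SOD2 lies below the lower line, and the others stay between the lines while the spread of all genes in grey narrows to the right.

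The promoters of the members were searched for the core of the antioxidant response element, TGACNNNGC, on both strands of the 250 bases before each RefSeq start (build GRCh38.p14). Windows were found for 27 of the 36 members, some with more than 1 start, and none were found for SLC7A11, GSS, GSR, MGST2, PRDX1, PRDX6, HMOX1, FTH1 and SOD1. A match was present in 8 of these 27 genes (29.6%), beside 3609 of the 27305 RefSeq genes with a window (13.2%), whether or not they had an FPKM value. Counted by window it was 22.5% of the members' windows and 10.9% of all windows. Stretches from 5 of the 8 genes are shown, 5′ to 3′ on the strand of the gene, because they include ME1, the member with the largest rise, and well known genes of glutathione and thioredoxin metabolism. Capitals mark the match, which reads GCNNNGTCA where it lies on the opposite strand.
ME1: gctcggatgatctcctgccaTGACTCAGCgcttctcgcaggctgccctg
SLC3A2: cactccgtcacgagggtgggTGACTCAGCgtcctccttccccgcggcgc
GSTP1: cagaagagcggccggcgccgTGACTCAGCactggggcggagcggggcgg
GCLM: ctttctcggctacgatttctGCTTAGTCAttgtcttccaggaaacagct
TXNRD1, upstream start: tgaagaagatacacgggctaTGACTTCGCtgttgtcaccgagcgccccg
TXNRD1, downstream start: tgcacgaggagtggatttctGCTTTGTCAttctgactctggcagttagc

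The stretch of ME1 is chr6:83431160-83431208 on the minus strand, and its match begins 137 bases before the start. That of SLC3A2 is chr11:62881642-62881690 on the plus strand (37 bases before an internal RefSeq start, downstream of the first base of the gene), that of GSTP1 is chr11:67583726-67583774 on the plus strand (66 bases) and that of GCLM is chr1:93909436-93909484 on the minus strand (34 bases). The TXNRD1 stretches are chr12:104215660-104215708 (99 bases) and chr12:104286910-104286958 (102 bases), both on the plus strand. In ME1, SLC3A2 and GSTP1 the match reads TGACTCAGC, which also holds TGACTCA, the binding site of AP-1 factors. These 3 genes had different ratios, 1.19 for ME1, 0.29 for GSTP1 and -0.48 for SLC3A2. The other genes with a match were KEAP1, PGD and GSTO1, and of all 8 genes 3 were higher and 5 were lower in FZR1 ko. CAT and SOD2 held no match in their windows, and neither did NQO1, GCLC and SRXN1. Only 250 bases before each start were searched, so a missing match does not show that a gene lacks the element. A match in these letters is a description and not evidence of binding.

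The genes for NRF2 and its repressor had nearly equal levels in the 2 libraries. NFE2L2 had 31.2 FPKM in control and 28.6 in FZR1 ko (log2 ratio -0.12), and KEAP1 had 30.4 and 30.2 FPKM (-0.01). Within each library they stood close to each other as well, with 1.02 NFE2L2 transcripts for each KEAP1 transcript in control and 0.94 in FZR1 ko on the FPKM scale. NRF2 is controlled mainly through the stability of the protein, which mRNA levels do not show. Known targets of NRF2 are spread over several of the roles below. NQO1, a quinone reductase, had 78.9 FPKM in control and 67.6 in FZR1 ko (-0.22). HMOX1, which breaks down heme and is induced by many stresses, had 22.7 and 16.8 FPKM (-0.42). SRXN1, which repairs overoxidised peroxiredoxins, had 58.0 and 43.6 FPKM (-0.40). TXNRD1, which reduces thioredoxin, had 90.6 and 110 FPKM (0.28).

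**Figure D2:**
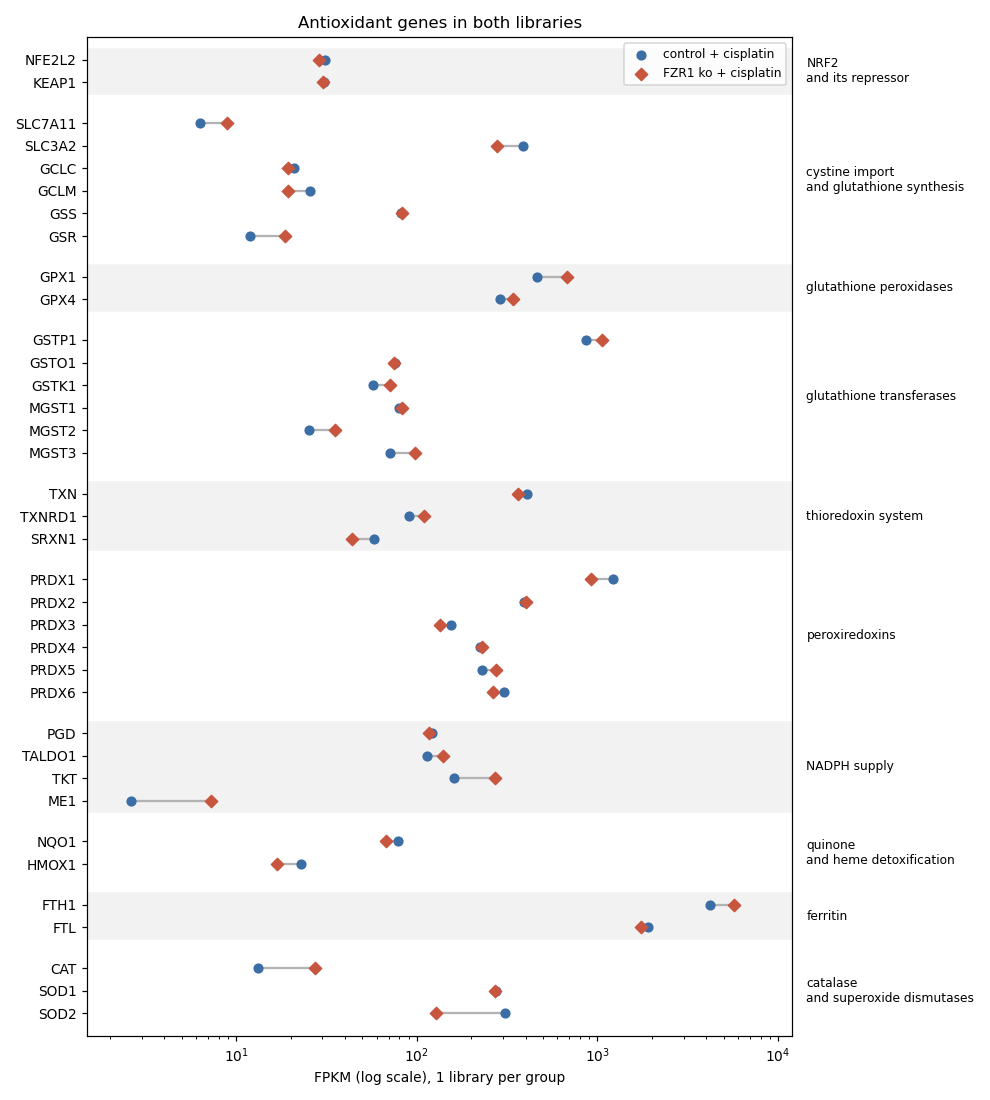
The FPKM of each of the 36 genes on a log axis, grouped by role, with a blue circle for the control library and a red diamond for the FZR1 ko library, both with cisplatin. The longest lines between the symbols belong to ME1 (2.60 and 7.23 FPKM), SOD2 (307 and 128 FPKM) and CAT (13.1 and 27.3 FPKM).

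Cystine enters the cell through a pair of proteins, the transporter SLC7A11 and its partner SLC3A2, which serves other amino acid transporters too. They differed in opposite directions. SLC7A11 had 6.34 FPKM in control and 8.91 in FZR1 ko (0.43), while SLC3A2 had 387 and 277 FPKM (-0.48). SLC3A2 was in large excess in both libraries, 61.1 times the level of SLC7A11 in control and 31.1 times in FZR1 ko. Of the genes that build glutathione, GCLC, the catalytic subunit of the rate-limiting ligase, had 21.0 and 19.3 FPKM (-0.12), and GSS, the second enzyme, had 81.4 and 82.9 FPKM (0.02). GCLM, the modifier subunit, had 25.5 and 19.4 FPKM (-0.37), so that the level of GCLC went from 0.83 to 0.99 times that of GCLM. GSR, which returns oxidised glutathione to its reduced form with NADPH, had 11.9 FPKM in control and 18.7 in FZR1 ko (0.61), past 1.5-fold but not 2-fold. Synthesis and recycling thus did not differ in 1 direction.

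None of the glutathione peroxidases and transferases among the members passed 1.5-fold, beside 35.7% of all genes and 22.1% of those of at least 100 FPKM. GPX1, the main cytosolic glutathione peroxidase, had 466 FPKM in control and 677 in FZR1 ko (0.54). GPX4, which reduces lipid peroxides in membranes and protects cells from ferroptosis, had 287 and 339 FPKM (0.24). Together the peroxidases had 753 FPKM in control and 1016 in FZR1 ko. Of the 6 glutathione transferases, 5 were higher and 1 was lower in FZR1 ko, with a median log2 ratio of 0.30, beside 49.6% of all genes higher.

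GSTP1 was the most abundant transferase, with 869 FPKM in control and 1064 in FZR1 ko (0.29). It is a cytosolic enzyme studied for its part in drug tolerance, and its promoter is often methylated and silent in breast cancers that express the estrogen receptor. It alone made up 73.7% of the transferase FPKM in control and 74.6% in FZR1 ko. The largest ratios were those of membrane-bound transferases, MGST2 with 25.3 and 35.4 FPKM (0.47) and MGST3 with 71.1 and 97.6 FPKM (0.45). GSTK1 of mitochondria and peroxisomes had 57.2 and 71.5 FPKM (0.32). MGST1 had 79.6 and 82.5 FPKM (0.05), and GSTO1, a transferase of the omega class, had 76.2 and 74.3 FPKM (-0.03).

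Thioredoxin reduces protein disulphides and is itself reduced by TXNRD1. TXN had 408 FPKM in control and 361 in FZR1 ko (-0.18), so that with the higher TXNRD1 the number of TXN transcripts for each TXNRD1 transcript went from 4.50 to 3.29 on the FPKM scale. The 6 peroxiredoxins, which remove hydrogen peroxide with electrons from thioredoxin or, for PRDX6, from glutathione, summed to 2517 FPKM in control and 2230.2 in FZR1 ko. PRDX1 was the highest of them in both libraries with 1213 and 924 FPKM (-0.39), and its share of the peroxiredoxin sum was 48.2% in control and 41.4% in FZR1 ko. The mitochondrial PRDX3 had 155 and 134 FPKM (-0.21) and PRDX6 303 and 265 FPKM (-0.19). PRDX5, found in mitochondria, peroxisomes and cytosol, was higher with 228 and 274 FPKM (0.26). PRDX2 had 394 and 404 FPKM and PRDX4 of the endoplasmic reticulum 224 and 230 FPKM (0.04 for each). The group split into 3 higher and 3 lower genes, none past 1.5-fold (35.7% of all genes), and without PRDX1 the log2 ratios ran from -0.21 to 0.26.

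The genes that supply NADPH, the electron source of both systems, were higher in FZR1 ko in 3 of 4 cases, beside 49.6% of all genes, and 1 of the 4 (25.0%) rose past 2-fold, beside 6.79% of all genes. ME1, the cytosolic malic enzyme, rose from 2.60 FPKM in control to 7.23 in FZR1 ko (1.19), and only 566 of the 13554 genes (4.18%) had a higher ratio. It lies on chromosome 6 from 83210402 to 83431051, and no other RefSeq gene overlaps it. It was also the least abundant member in both libraries, and the pseudocount holds its ratio down, since 7.23 is 2.78 times 2.60. TKT, the transketolase of the non-oxidative pentose phosphate pathway, had 160.2 FPKM in control and 272 in FZR1 ko (0.76). TALDO1, the transaldolase of the same branch, had 114 and 140 FPKM (0.29). PGD, which makes NADPH in the oxidative branch, had 122 and 117 FPKM (-0.06). The sum over these genes was 399 FPKM in control and 537 in FZR1 ko, and most of that difference was TKT.

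Ferritin keeps iron away from peroxide, and its chains were among the highest values of the table. FTH1, the heavy chain that oxidises iron, had 4180.5 FPKM in control and 5725 in FZR1 ko (0.45) and ranked 2 of all genes in each library. FTL, the light chain, had 1897 and 1751 FPKM (-0.12). The number of heavy chain transcripts for each light chain transcript went from 2.20 to 3.27 on the FPKM scale. Ferritin held 1.21% of all FPKM in control and 1.49% in FZR1 ko, against 2.54% and 2.84% for all 36 members. Ferritin genes have many processed copies in the genome. A search by symbol for copies of the ferritin genes and of several other members found 3 rows in all, none above 1.07 FPKM. How the quantification divided reads among further copies is not stated.

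**Figure D3:**
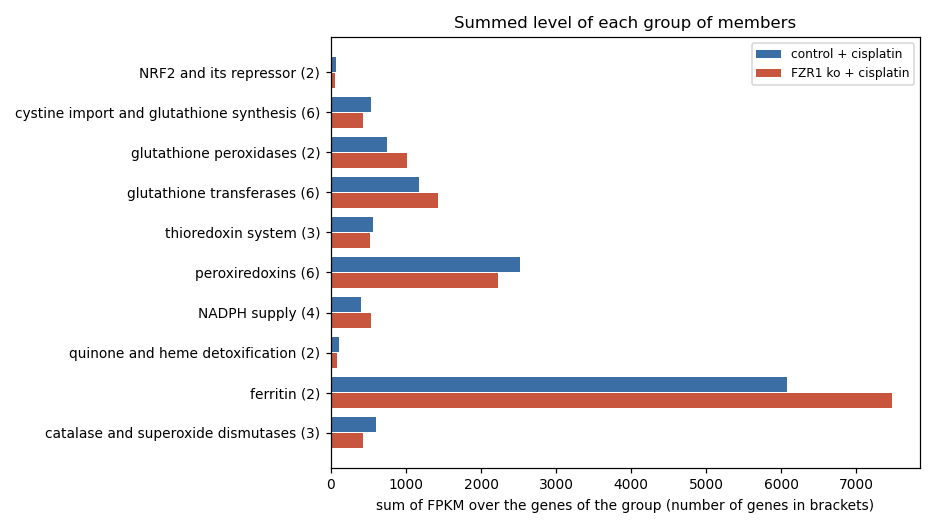
Summed FPKM of each role group, blue for control and red for FZR1 ko, on a linear axis from 0. Ferritin (6078 and 7476 FPKM) and the peroxiredoxins (2517 and 2230.2 FPKM) hold most of the antioxidant transcripts, with the first higher and the second lower in FZR1 ko.

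Catalase and the superoxide dismutases held the other large differences, in opposite directions. SOD2, the manganese enzyme of mitochondria that turns superoxide into hydrogen peroxide and a known NF-kB target, fell from 307 FPKM in control to 128 in FZR1 ko (-1.26). It ranked 230 of all genes in control and 610 in FZR1 ko, and 474 of the 13554 genes (3.50%) had a lower ratio. Among the 986 genes of at least 100 FPKM, 30 had a lower ratio. SOD1, the copper and zinc enzyme of the cytosol, had 275 and 271 FPKM (-0.02), so SOD1 had 0.90 times the level of SOD2 in control and 2.12 times in FZR1 ko. CAT, which breaks down hydrogen peroxide in peroxisomes, rose from 13.1 FPKM in control to 27.3 in FZR1 ko. On the log2 scale this was just past 1, and without the pseudocount CAT was 2.08 times higher. CAT remained far below the peroxiredoxins and GPX1 in both libraries.

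SOD2 lies on chromosome 6 from 159669069 to 159762281 and CAT on chromosome 11 from 34438934 to 34472060. The RefSeq span of SOD2 overlaps WTAP (49.7 and 34.3 FPKM) and ACAT2 (49.4 and 67.7 FPKM), and whether the libraries kept the strand is not stated, so reads of shared stretches cannot be told apart. Both neighbours were below SOD2 in level. No other RefSeq gene overlaps CAT. The same limit holds for TXNRD1, which overlaps EID3 (13.4 and 7.38 FPKM), PRDX1, which overlaps MMACHC (5.39 and 8.19 FPKM), and PRDX5, which overlaps TRMT112 (121 and 127 FPKM).

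A second list of 92 genes of the same pathways, outside the 36, was compared to place the members. A value was found for 91 of them, HPGDS was not analysed here, and 82 reached 1 FPKM in 1 library or both. Of these 82, 16 passed 2-fold (19.5%), 9 higher (11.0%) and 7 lower (8.54%) in FZR1 ko, beside 13.5%, 6.79% and 6.72% of all genes compared. The median log2 ratio was 0.05, with 45 genes higher and 37 lower, beside 49.6% and 50.3% of all genes. With a pseudocount of 5 FPKM 6 of the 82 genes passed, MAFF, MAFG, TXNIP, TXNRD2, NNT and BLVRA, beside 3.34% of all genes. The list thus moved in both directions.

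The partners of NRF2 held the largest falls of this list. MAFF, a small MAF protein that pairs with NRF2 or with the repressor BACH1, fell from 57.8 FPKM in control to 14.98 in FZR1 ko (-1.88), and MAFG fell from 64.3 to 22.5 FPKM (-1.47). MAFK, the third small MAF, had 111 and 94.7 FPKM (-0.22), and BACH1 had 11.2 and 9.54 FPKM (-0.21). NFE2L1, a relative of NRF2, had 110 and 66.8 FPKM (-0.72), and SQSTM1, which binds KEAP1, had 248 and 222 FPKM (-0.16). The higher genes were CUL3, the scaffold of the ligase that KEAP1 serves, with 4.71 and 7.80 FPKM (0.62), and RBX1, its RING subunit, with 48.7 and 53.6 FPKM (0.13). Of the 8 NRF2 partners and regulators 6 were lower in FZR1 ko, beside 50.3% of all genes, and 2 (25.0%) fell past 2-fold, beside 6.72% of all genes.

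Of the 17 further targets of NRF2 compared, 7 were higher and 10 were lower, beside 49.6% and 50.3% of all genes. In each direction 3 passed 2-fold (17.6%), beside 6.79% of all genes higher and 6.72% lower, and with a pseudocount of 5 FPKM 0 of these 6 genes passed. The drug exporters ABCC1 and ABCC2 were opposed, ABCC1 rising from 2.91 FPKM in control to 8.43 in FZR1 ko (1.27) and ABCC2 falling from 5.48 to 1.79 FPKM (-1.22). OSGIN1 fell from 42.1 to 19.0 FPKM (-1.11). AKR1C1 fell from 4.44 to 1.56 FPKM (-1.09), but it is nearly identical to AKR1C2 (2.16 and 1.28 FPKM), and reads shared between them make both uncertain. CBR3, a carbonyl reductase, rose from 2.28 to 6.05 FPKM (1.10), and PIR had 7.78 and 16.6 FPKM, which is 2.13 times without the pseudocount and exactly 2-fold with it.

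Of the 24 other glutathione genes compared, 15 were higher and 9 were lower, beside 49.6% and 50.3% of all genes. Past 2-fold, 3 (12.5%) were higher and 1 (4.17%) was lower, beside 6.79% and 6.72% of all genes, and with a pseudocount of 5 FPKM 0 of these 4 genes passed. GGT1, which cleaves glutathione outside the cell, rose from 29.8 to 61.7 FPKM (1.02), and CHAC1, which degrades it inside the cell and is induced by ATF4, fell from 12.1 to 4.13 FPKM (-1.35). The transferases GSTM4 (8.14 and 19.8 FPKM, 1.19) and GSTO2 (3.44 and 8.27 FPKM, 1.06) rose. The GSTM genes are close copies of each other, and GGT1 has relatives of similar sequence, so these values are less certain. GSTM1, the highest of the GSTM genes, had 84.1 and 110 FPKM (0.38), and GSTM2 had 1.57 and 0.71 FPKM (-0.59). Among the genes below 2-fold, CBS, the first enzyme of the route from homocysteine to cysteine, had 1.90 and 4.51 FPKM (0.93) and GGCT, which acts in glutathione breakdown, had 70.6 and 112 FPKM (0.66). The glutaredoxin GLRX had 17.8 and 10.5 FPKM (-0.71), and the glyoxalases GLO1 and HAGH had 149 and 121 FPKM (-0.30) and 18.2 and 12.6 FPKM (-0.50).

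Among the thioredoxin and NADPH genes of the second list, TXNRD2 and NNT rose and TXNIP fell. TXNRD2, the mitochondrial thioredoxin reductase, rose from 12.2 FPKM in control to 34.4 in FZR1 ko (1.42), and the number of TXNRD1 transcripts for each TXNRD2 transcript went from 7.42 to 3.19 on the FPKM scale. NNT, which makes NADPH in mitochondria, rose from 23.3 to 56.3 FPKM (1.23), and its antisense gene NNT-AS1 had 10.6 and 13.5 FPKM. IDH1, a cytosolic source of NADPH, had 26.5 and 52.5 FPKM (0.96) and MTHFD1 of folate metabolism had 32.9 and 62.9 FPKM (0.92), both just under 2-fold. The mitochondrial enzymes IDH2 (26.5 and 20.9 FPKM, -0.33) and MTHFD2 (111 and 89.3 FPKM, -0.31) were lower, and the mitochondrial thioredoxin TXN2 had 48.8 and 50.6 FPKM (0.05). Of the 10 NADPH genes of this list 8 were higher in FZR1 ko, beside 49.6% of all genes, with a median log2 ratio of 0.30. Past 2-fold there was 1 of the 10, beside 13.5% of all genes, and past 1.5-fold there were 3 of the 10, beside 35.7% of all genes.

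TXNIP, which binds and blocks thioredoxin, fell from 52.3 to 19.7 FPKM (-1.37). BLVRA, which turns the product of heme oxygenase into bilirubin, rose from 15.8 to 39.2 FPKM (1.26), whereas HMOX2, the constitutive heme oxygenase, had 28.8 and 24.5 FPKM (-0.23). NCOA4, the receptor that delivers ferritin for breakdown, had 192 FPKM in control and 102 in FZR1 ko (-0.91), and TFRC, the receptor for iron uptake, had 76.5 and 72.8 FPKM (-0.07). BLVRB, the other biliverdin reductase, had 53.4 and 78.4 FPKM (0.55), and ACO1, an enzyme that also binds iron-responsive mRNAs, had 21.1 and 31.1 FPKM (0.54). Of the 8 heme and iron genes compared, 5 were higher and 3 were lower, and 1 (12.5%) passed 2-fold, beside 13.5% of all genes. None of the 7 superoxide and selenium genes compared passed 1.5-fold with the pseudocount of 1 FPKM, beside 35.7% of all genes.

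**Figure D4:**
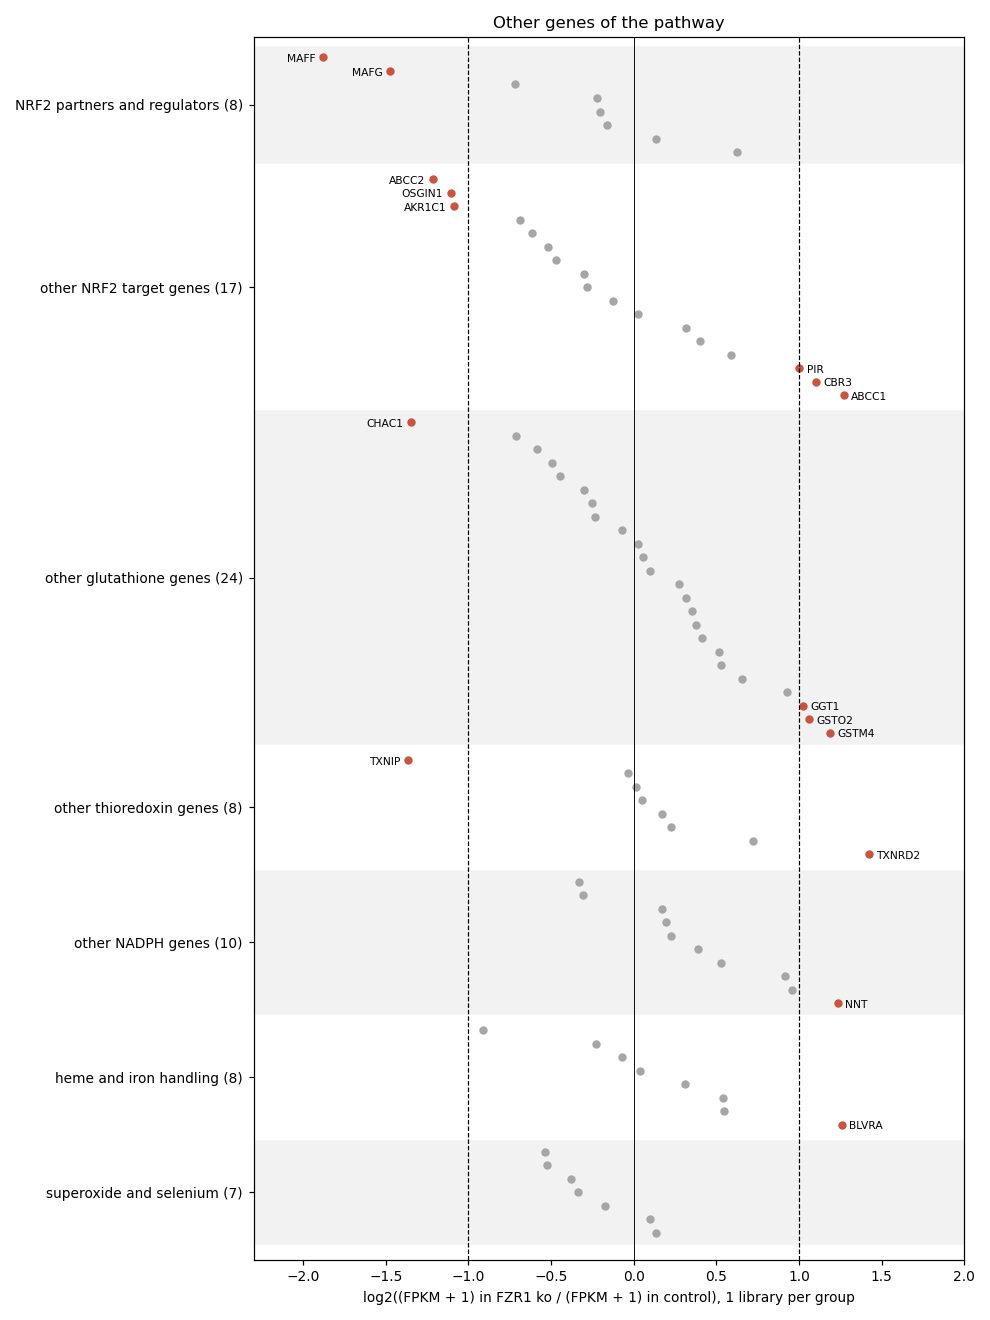
The log2 ratio of FZR1 ko to control for the 82 genes of the second list with at least 1 FPKM in 1 library, 1 point a gene, sorted within each role. Red points with names are the 16 genes at or past 2-fold, from MAFF at -1.88 to TXNRD2 at 1.42, and dashed lines mark 2-fold.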

How the data were processed

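Total RNA was sequenced on a BGISEQ-500. The FPKM per Entrez gene that the authors deposited, with 2 decimals, came from alignment to hg38 transcripts with Bowtie2 and quantification with RSEM. The submitters' processing notes name Trimmomatic 0.36, HISAT2 2.1.0, Bowtie2 2.2.5 and RSEM. The annotation and filters are not given in the sources used here. Of 24663 rows, 1630 held no value, and 22925 of the remaining 23033 IDs matched a RefSeq symbol (GRCh38.p14). FPKM holds no counts, so depth is unknown. Among 253 RNA genes of at most 300 bases, the commonest quotient of the libraries, FZR1 ko over control, was 0.978 (46 genes within 0.5%), which puts the depths close to each other. Sums were 502589 FPKM in control and 500488 in FZR1 ko.

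A log2 ratio with a pseudocount of 1 FPKM was computed for 13554 genes of 1 FPKM or more in either library, and a low gene's change is understated by it. Differences of 2-fold or more were counted. Named were FZR1, all members, genes of the second list past 2-fold and markers. BACH1, MAFK, NFE2L1, SQSTM1, CUL3, RBX1, AKR1C2, GSTM1, GSTM2, GLRX, GLO1, HAGH, CBS, GGCT, IDH1, IDH2, MTHFD1, MTHFD2, TXN2, HMOX2, BLVRB, ACO1, NCOA4, TFRC, NNT-AS1, WTAP, ACAT2, EID3, MMACHC and TRMT112 were added to these once values were known. The values of some genes are not reported here. The members and lists were chosen with earlier results of these data known. Python 3.11.15, numpy 2.4.6, pandas 2.3.3 and matplotlib 3.10.9 were used.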

Additional observations from a re-analysis of the deposited data

How the results depend on the processing

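No paired analysis was possible because there was a single library for each genotype and no test was run, and for the same reason no library could be left out. No pseudocount and protein-coding genes only were alternatives chosen after seeing the data. No member changed direction in 288 values (36 members, 8 settings), and 282 of them stayed within 0.1 on the log2 scale. Much of this was fixed in advance. A pseudocount cannot change a sign, and the filters leave a member's ratio as it was. Only centring and rescaling could have changed a direction. The largest shift was that of ME1, from 1.19 to 0.69 with a pseudocount of 5 FPKM, and without a pseudocount it was 1.48. CAT had 0.83 with 5 FPKM. With that pseudocount 1 member passed 2-fold in place of 3, 0 in place of 2 higher, 6 in place of 16 genes of the second list and 453 in place of 1831 of all genes. With 0.1 FPKM 2824 of all genes passed. At 1.5-fold 5 members (4 higher), 29 genes of the second list and 4833 of all genes passed. At 4-fold 0 members in either direction, 0 genes of the second list and 150 of all genes passed. These follow from the construction of the settings. Centring, rescaling and the filters moved neither the count of members nor a median by more than 0.1. The unknown depth limits low genes such as ME1, CBR3 and ABCC1 most.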
